A study of Mus musculus with 16 samples.

Results

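The comparison described here is between a pair of RNA libraries from mouse male germline stem cells (GSCs) grown on Matrigel, a basement membrane extract, at 2 coating densities. The epithelial-like library (titled GSC_EL) came from cells on 0.1 µg/cm2 and the mesenchymal-like library (GSC_ML) from cells on 10 µg/cm2, and both were chosen by these labels alone. They are 2 of the 12 RNA libraries of the study and 2 of its 16 libraries in all; 4 ATAC-seq libraries of the same densities were not analysed here. Each density had 1 RNA library, which leaves every difference below without replicates to check it, and p-values were not computed.

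Both cultures shared everything else that the labels record. They were founded from GFP-positive germ cells lacking KIT, sorted by flow cytometry from mice at postnatal day 5.5. The mice, B6;CBA-Tg(Pou5f1-EGFP)2Mnn/J, carry a transgene in which Pou5f1 (Oct4) sequences drive GFP. Both were kept without feeder cells in StemPro-34 SFM with GDNF, bFGF and EGF and passaged weekly, and no inhibitor is named for either. The labels do not say how many animals or cultures went into a library. The other 10 RNA libraries serve below as a frame for single values: day 0 on mouse embryonic fibroblast (MEF) feeders, 4 and 9 days after transfer to Matrigel, 3 GFP fractions (low, mid and high) sorted from cells on 10 µg/cm2 Matrigel, and 4 feeder cultures treated with DMSO or with 0.5, 1 or 2 µM of the G9a inhibitor UNC0638. They belong to other experiments, so the experiment and the density cannot be told apart when they are compared with the pair.

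GSCs are the cultured counterpart of the stem cells that feed sperm production. GDNF acts on them through the receptor pair GFRA1 and RET and, together with FGF signalling, keeps the stem cell programme active. An epithelial cell holds to its neighbours through cadherins, tight junctions and keratins, whereas a mesenchymal cell contains vimentin, deposits fibronectin and collagen and secretes proteases and signalling proteins. The passage between these states is often accompanied by altered TGF-beta, YAP and growth factor signalling.

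Values are CPM, read counts relative to the library's TMM-scaled total, and wherever a pair of values follows a gene the epithelial-like library comes first. The libraries held 4459984 and 4541279 counts, the lower end of a range of 4335185 to 12019651 over the 12. Of 27128 genes, the comparison took the 14301 that averaged 1 CPM or more across the 12 libraries. That average includes the pair, so a gene high in only one library of the pair can pass through that value. Such genes add to the counts of higher or lower genes, in the lists and over all genes. Ratios are log2 ratios of CPM + 1, mesenchymal-like over epithelial-like, which understate the difference of low genes; fold values are plain ratios of CPM. A gene was counted as higher or lower at a ratio of at least 2-fold. Where a counting interval is given, it is the 95% Clopper-Pearson interval of the read split on the log2 scale, without the pseudocount. Smart-seq2 reads carry no molecular identifiers, so these intervals cover counting error only.

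Of 4 markers of the epithelial and mesenchymal states, the mesenchymal pair differed more. Vim, the intermediate filament of mesenchymal cells, was at 29.6 and 1478 CPM, and the other 10 libraries held it at 11.1 to 134 CPM. Fn1, fibronectin, was at 211 and 2186 CPM against 134 to 582 CPM elsewhere. For both genes the mesenchymal-like library was the highest of the 12 and the epithelial-like library lay inside the range of the others. Tacstd1 (Epcam), an epithelial adhesion protein, was 1.68-fold lower in the mesenchymal-like library, at 362 and 215 CPM, and both values lay within the 203 to 371 CPM of the other libraries. Cdh1, E-cadherin, was at 9.86 and 12.6 CPM, with a counting interval of -0.27 to 0.97 that includes 0, so this depth does not show a difference. The mesenchymal markers therefore differed in the labelled direction, while neither epithelial marker reached 2-fold.

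Germ cell and somatic markers set the frame for every result that follows. Of the 28 germ cell genes compared, 0 differed by 2-fold, and their summed level was 9312 and 8059.8 CPM, the second below the 8915 to 10293 CPM of the other libraries. Of 24 fibroblast genes, 23 were compared and 22 were at least 2-fold higher in the mesenchymal-like library. Their sum was 347 and 9262 CPM, with 118 to 3848 CPM in the others. The highest of these was the DMSO feeder culture, while day 0 on feeders had 330.3 CPM. In the 3 GFP fractions from the same 10 µg/cm2 density the fibroblast sum was 118, 149 and 260.3 CPM. Pdgfra, a receptor of many testicular and embryonic fibroblasts, was at 30.7 and 33.6 CPM, the member within 2-fold, and Fap, a fibroblast protease, had 0 counts in both libraries. Mfap5, a microfibril protein, had 0 and 52 counts. The labels do not say whether the cells of the pair were sorted again before lysis, as those of the GFP fractions were. In bulk RNA, more fibroblast-like cells and more of these transcripts per cell cannot be told apart, and the part of this list in the differences below was not tested.

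Contractile genes also differed. Of 14 contractile genes compared, 11 were higher, with sums of 606 and 2229 CPM; Acta2, smooth muscle actin, was at 2.11 and 189 CPM and Tagln at 0.469 and 62.5 CPM. The Sertoli list summed to 252 and 276 CPM, and most of this was Trf, at 232 and 206 CPM. Of 9 Sertoli genes compared, 3 were higher by 2-fold: Sox9 at 4.69 and 22.7 CPM, Inhbb at 0.939 and 15.5 CPM and Kitl at 1.41 and 13.8 CPM. The defining Sertoli genes Amh and Fshr had 0 counts in both libraries. The Leydig list held 1 gene above the filter, and summed to 7.04 and 5.07 CPM. The endothelial list summed to 25.1 and 24.9 CPM and the myeloid list to 23.2 and 44.7 CPM. In the low, mid and high GFP fractions the myeloid list summed to 1815, 1599 and 215 CPM. Of 21 epithelial genes compared, Krt8, Cldn4, Perp and Dsp differed by 2-fold: the keratin Krt8 was at 7.98 and 2.9 CPM, while Perp and Dsp, both desmosome genes, were at 4.69 and 69.5 CPM and 1.64 and 5.31 CPM. Cldn4, a claudin, had 5 and 0 counts.

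The difference between the libraries was one-sided. In the mesenchymal-like library 1527 of 14301 genes (10.7%) were at least 2-fold higher and 254 (1.78%) at least 2-fold lower, and at 4-fold the numbers were 674 and 9. At 16-fold they were 165 and 1. The TMM scaling sets most ratios near 0, and with it 54.4% of all genes had a ratio below 0, and the median ratio was -0.06. The counting interval lay below 0 for 22% of genes and above 0 for 20.8%. With the ratios centred on the median of the germ cell list, which moves the median of all genes from -0.06 to 0.22, the 2-fold split was 2149 higher and 94 lower. These 2 percentages, 10.7% higher and 1.78% lower, are the background against which each list below can be read, and the lists were chosen with earlier results of these data known, so their counts are descriptions.

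**Figure D1:**
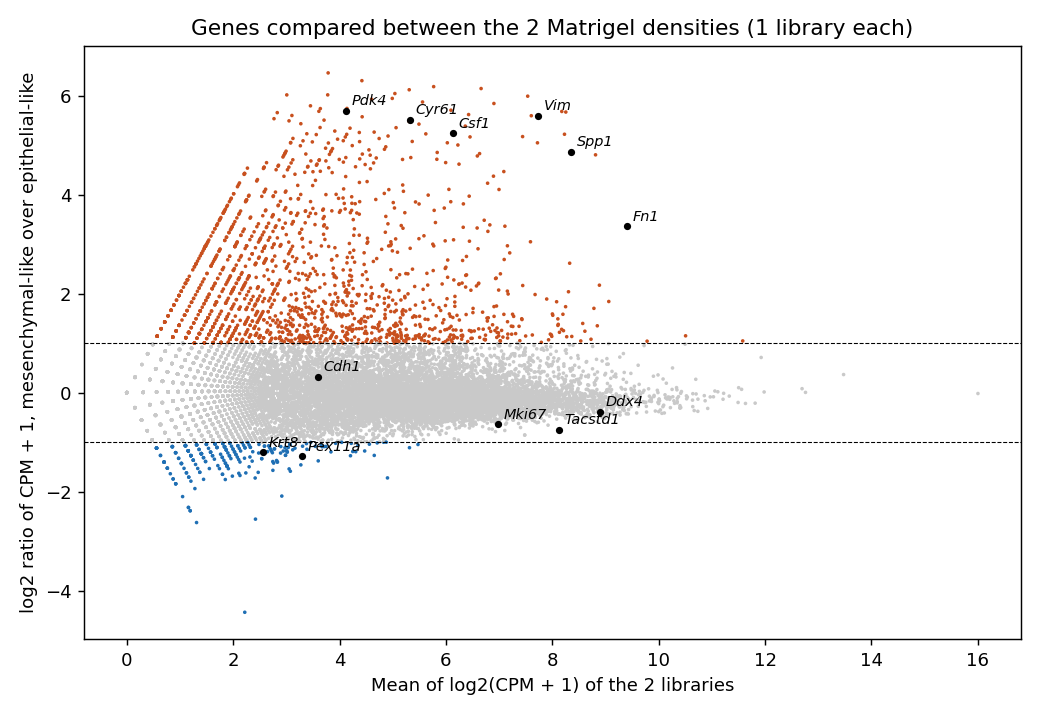
Each point is 1 of the 14301 genes compared, by its mean log2(CPM + 1) over the 2 libraries (horizontal axis) and its log2 ratio of CPM + 1, mesenchymal-like over epithelial-like (vertical axis); dashed lines mark 2-fold. Genes higher by 2-fold (orange, 1527) reach ratios above 6, while those lower by 2-fold (blue, 254) lie mostly at low levels.

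Set against the other 10 libraries, the higher genes stood out more often in the mesenchymal-like library than in the epithelial-like one. The first was the highest of the 12 for 1177 of the 1527 higher genes (77.1%, against 15.4% of all genes compared), and the epithelial-like library was the lowest for 392 (25.7%, against 7.4%). For the 254 lower genes the mesenchymal-like library was the lowest of the 12 in 131 (51.6%, against 12.9%) and the epithelial-like library the highest in 73 (28.7%, against 7.21%). The pair is part of each ranking, so a gene with a large ratio is more likely to hold an extreme place. Median levels were 2.58 and 19.3 CPM for the higher genes and 4.46 and 1.21 CPM for the lower ones.

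**Figure D2:**
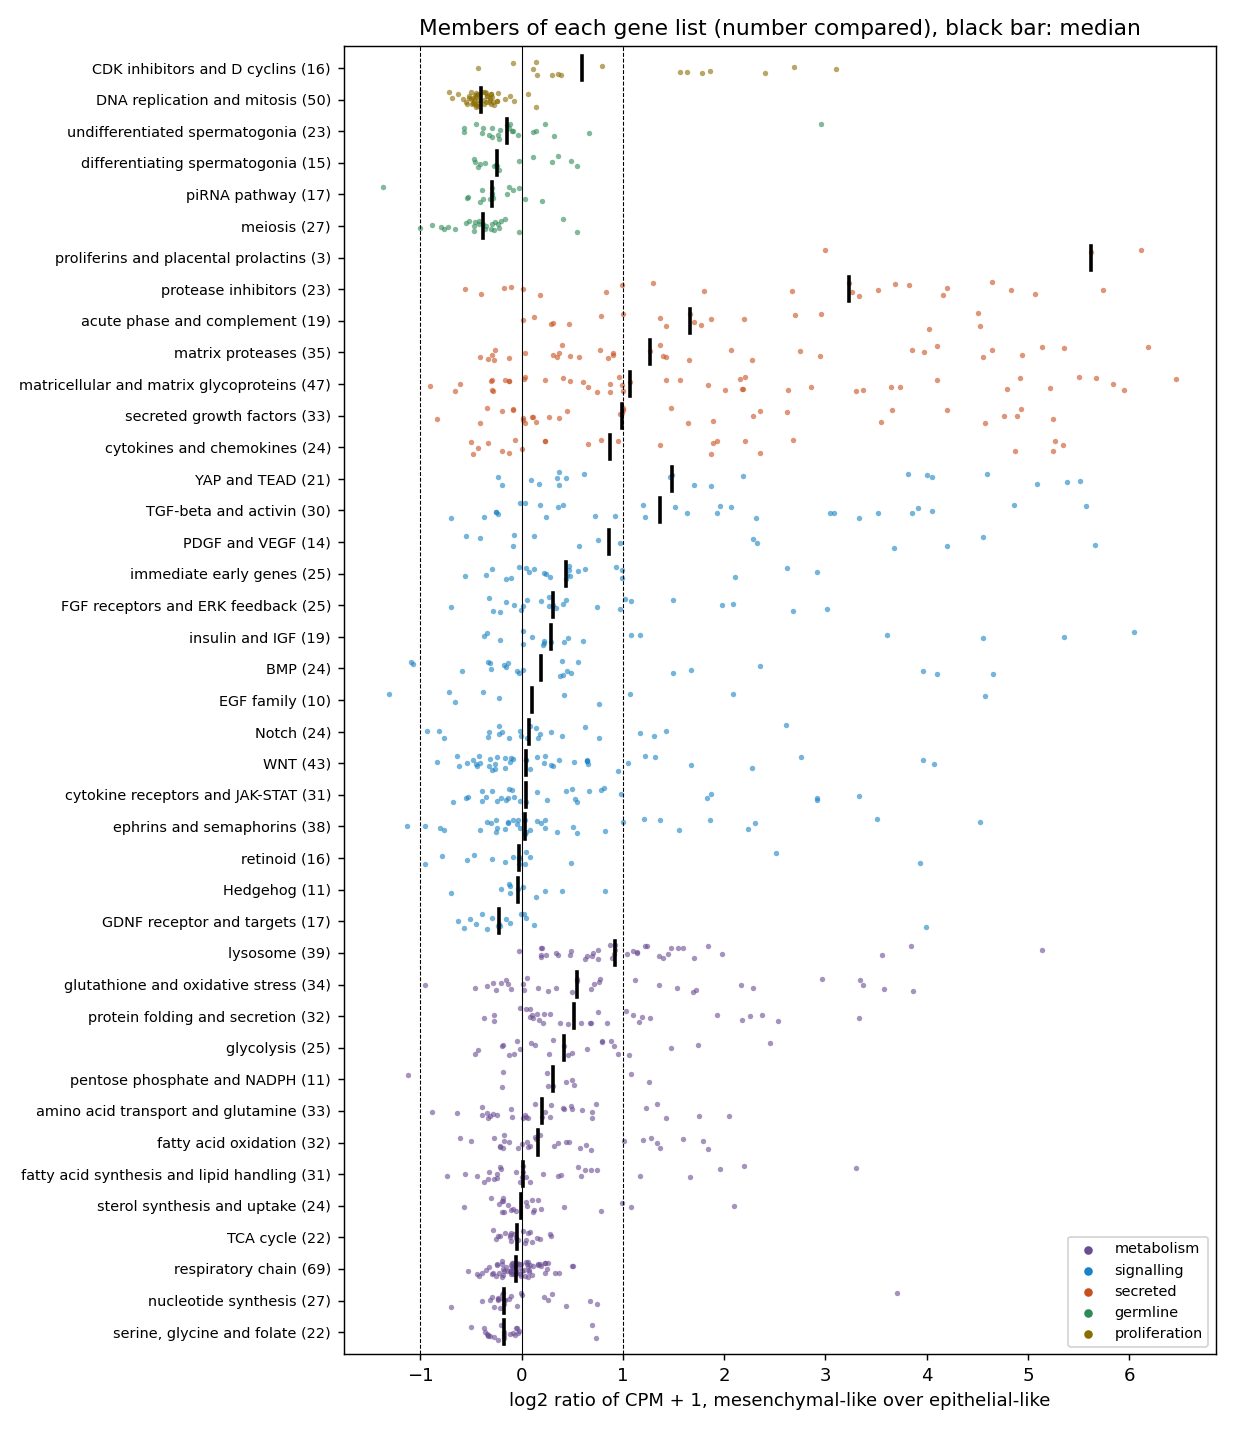
Each point is 1 gene, placed by its log2 ratio of CPM + 1 (mesenchymal-like over epithelial-like), in rows by gene list and coloured by section; the number compared stands in brackets, black bars are medians and dashed lines mark 2-fold. Protease inhibitors (median 3.23) and YAP and TEAD genes (1.48) sit to the right, respiratory chain genes (-0.06) at 0 and replication and mitosis genes (-0.40) to the left.

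Genes lower in the mesenchymal-like library were few and mostly at low levels, and 9 were at least 4-fold lower. Of these 9, 7 are predicted loci or clones, among them the largest decrease: LOC100043121 had 88 and 0 counts (at least 28.5-fold lower, other libraries 0 to 10.8 CPM). The other 2 are Rhox4b, an X-linked homeobox gene of a multicopy cluster, with 18 and 0 counts, and Tcte3, a dynein light chain gene, with 17 and 0 counts; these 3 were singled out after their values were seen. Predicted loci made up 113 of the 254 (44.5%, against 21.4% of all genes compared); reads of such loci may be shared with near-identical copies. Of 11243 compared genes with an established name, 141 (1.25%) were at least 2-fold lower and 1318 (11.7%) at least 2-fold higher. Of these genes, 7544 had at least 50 counts in the epithelial-like library. That filter uses the epithelial-like library alone, so the shares depend on it. Among the 7544, 20 (0.265%) were at least 2-fold lower and 340 (4.51%) at least 2-fold higher. Those 20 had ratios from -1.28 to just past the 2-fold line, or 2.05- to 2.70-fold, and for 0 of them did the counting interval exclude a difference smaller than 2-fold. The first gene outside, Tmem69, had a ratio of -0.99. The mesenchymal-like library was the lowest of the 12 for 13 of the 20 and the epithelial-like library the highest for 7.

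The lowest ratio among them belonged to Pex11a, a protein of peroxisome division, at 14.3 and 5.31 CPM (61 and 22 counts; counting interval -2.20 to -0.71). The other 10 libraries held it at 9.24 to 20.1 CPM, so the mesenchymal-like value stood below every other and the epithelial-like value inside the range. Il8rb (Cxcr2), a receptor for neutrophil-attracting chemokines, was at 28.9 and 12.1 CPM with 11.9 to 82.5 CPM elsewhere, and Pbld at 57.5 and 26.1 CPM with 23.2 to 189 CPM. Both values of these genes lay within the range of the other libraries.

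The centromere genes Mlf1ip (Cenpu) and Cenpi were at 27.7 and 10.9 CPM and 32.9 and 15.5 CPM, and Cep72, a centrosome protein, at 25.6 and 12.1 CPM. Rad51ap1, a protein of homologous recombination, was at 36.1 and 17.4 CPM, and the mesenchymal-like library was the lowest of the 12 for all 4. Mutyh, a glycosylase of base excision repair, was at 22.3 and 10.6 CPM; there the epithelial-like library was the highest of the 12 and the mesenchymal-like value lay inside the 7.87 to 22.2 CPM of the others. Hormad2, a protein of the meiotic chromosome axis, was at 14.6 and 6.76 CPM. The histone H3 gene Hist2h3b was at 62.9 and 29.9 CPM, and both values exceeded the 2.79 to 17.4 CPM of every other library.

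The X-linked genes Xlr4a, Xlr5c and Mageb3 were also among the 20, at 27.7 and 11.6 CPM, 32.4 and 13.8 CPM and 14.6 and 6.04 CPM. Xlr genes form a multicopy family with shared reads, so their values are uncertain. The remaining members were Glp1 (20.7 and 8.45 CPM), Ero1lb, an oxidase of the endoplasmic reticulum (18.5 and 8.21 CPM), Wtip, a LIM domain protein (15.96 and 7.002 CPM), Morn2 (13.4 and 5.79 CPM), the kinase Nek4 (28.4 and 13.04 CPM), the transcription factor Arid3a (39.2 and 19.07 CPM) and 1 gene not reported here. All 20 lie close to the 2-fold line: with the ratios centred on the germ cell list 0 of them reached it, and with a pseudocount of 5 only 2 did.

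**Figure D3:**
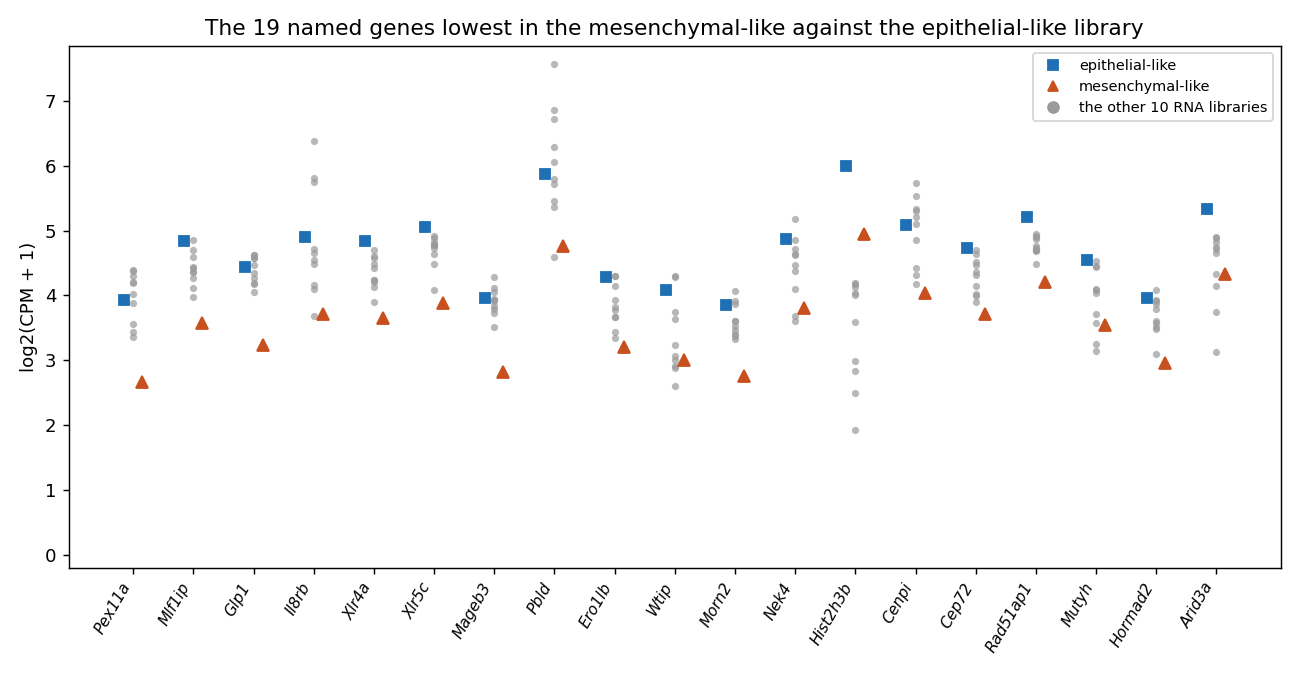
The 19 named genes with the lowest ratio among those with at least 50 counts, each with its log2(CPM + 1) in the epithelial-like library (blue square), the mesenchymal-like library (orange triangle) and the other 10 RNA libraries (grey points). The triangle is the lowest of the 12 values for 12 genes, and for Hist2h3b the square and the triangle lie above all grey points.

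Meiosis and piRNA genes had ratios mostly below 0, few of them past 2-fold. Of 27 meiosis genes compared, 25 had a ratio below 0, as did 54.4% of all genes, and 1, Hormad2, was 2-fold lower. The median was -0.38 against -0.06 for all genes, and -0.10 against 0.22 with germ cell centring. Sycp1 and Sycp3, which build the synaptonemal complex, were at 227 and 169 CPM and 116 and 96.3 CPM. The mesenchymal-like library was the lowest of the 12 for 16 of the 27. Of 17 piRNA pathway genes, which silence transposons in the germline, 15 were below 0 (median -0.29, or -0.01 with germ cell centring), and for 10 the mesenchymal-like library was the lowest. The PIWI gene Piwil2 was at 468 and 384 CPM and Mael at 525 and 403 CPM, and Kif17, a kinesin, had 20 and 5 counts (counting interval -3.73 to -0.50), the single member lower by 2-fold.

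Most stem cell regulators were within 2-fold. The 23 undifferentiated spermatogonia genes compared had a median of -0.15, which turned positive only with germ cell centring, and 1 was higher by 2-fold: Thy1, a surface protein of both spermatogonia and fibroblasts, at 2.11 and 23.2 CPM. Zbtb16 was at 115 and 91.3 CPM, Sall4 at 376 and 345 CPM and Id4 at 10.8 and 9.9 CPM. The counting interval of Id4 was -0.77 to 0.51, which includes 0. Of 15 genes of differentiating spermatogonia 0 differed by 2-fold (median -0.25, also positive only after that centring); Kit was at 33.3 and 27.8 CPM and Stra8, a retinoic acid response gene, at 64.8 and 46.4 CPM.

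Genes of DNA replication and mitosis had ratios mostly below 0, by small amounts. All 50 were compared, 48 had a ratio below 0 (54.4% of all genes), and for 44 the counting interval lay below 0 (22% of all genes), yet 0 reached 2-fold. Their median was -0.40, or -0.12 with germ cell centring, and the germ cell list itself had a median of -0.28. The sum was 10373 and 8002 CPM, against 8290 to 11256 CPM in the other libraries. The proliferation marker Mki67 was at 157 and 101 CPM (1.56-fold lower, counting interval -0.82 to -0.46), Birc5 (survivin) at 110.3 and 66.9 CPM and Ube2c, a ubiquitin enzyme of the mitotic exit, at 130.03 and 80.4 CPM. For these 3 the epithelial-like library was the highest of the 12. Cdc20, which activates the anaphase-promoting complex, was at 406 and 277 CPM, and Cdc2a (Cdk1), the mitotic kinase, at 148 and 101 CPM. The replicative helicase subunits Mcm2 and Mcm6 were at 631 and 511 CPM and 417 and 395 CPM.

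Promoters of mitotic genes often hold the cell cycle homology region, a short element through which they are held down outside the late cell cycle. Its letters TTTGAA, searched on both strands in the 250 bases before the start, were found in 10 of the 40 members of the replication and mitosis list with a promoter in the RefSeq table (25%), and in 12.8% of 10173 compared genes with one. This motif was added after the list was seen to be lower. The promoters of 3 of its members are shown to place these matches, on the gene's strand in build GRCm38.p6, each ending at the base before the start and with the match in capitals.
Cdc20, chr4:118437344-118437593 (minus strand): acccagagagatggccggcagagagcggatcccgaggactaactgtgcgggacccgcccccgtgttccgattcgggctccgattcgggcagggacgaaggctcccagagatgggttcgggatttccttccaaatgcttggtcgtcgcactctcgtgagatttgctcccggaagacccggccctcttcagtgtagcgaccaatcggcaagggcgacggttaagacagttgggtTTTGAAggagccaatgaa
Cdc2a, chr10:69352913-69353162 (minus strand): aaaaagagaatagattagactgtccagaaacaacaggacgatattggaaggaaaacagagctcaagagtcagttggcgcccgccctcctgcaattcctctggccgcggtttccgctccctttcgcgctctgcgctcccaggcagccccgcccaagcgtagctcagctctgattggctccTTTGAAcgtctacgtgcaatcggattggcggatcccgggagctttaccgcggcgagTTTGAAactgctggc
Mki67, chr7:135716380-135716629 (minus strand): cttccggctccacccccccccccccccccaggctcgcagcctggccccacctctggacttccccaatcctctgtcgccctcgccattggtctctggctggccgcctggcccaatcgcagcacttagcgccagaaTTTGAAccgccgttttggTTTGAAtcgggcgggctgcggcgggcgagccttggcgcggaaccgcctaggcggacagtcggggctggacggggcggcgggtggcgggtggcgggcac
The match began at position -18 in Cdc20, at -71 and -15 in Cdc2a and at -116 and -98 in Mki67, counted back from the start. A match describes letters and is not evidence of a bound site.

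D-type cyclins and CDK inhibitors, which act on the G1 step before replication, had ratios mostly above 0. Of 16 compared, 7 were at least 2-fold higher and 0 lower (median 0.59). Cyclin D1 (Ccnd1) was at 149 and 442 CPM and its partner Cdk6 at 6.34 and 21.7 CPM; Ccnd2 was within 2-fold at 895 and 1149 CPM. The inhibitors Cdkn1a (p21), Cdkn1c (p57), Cdkn2b (p15) and Cdkn2a were at 52.8 and 346 CPM, 15.5 and 86.4 CPM, 10.3 and 96.6 CPM and 2.35 and 11.1 CPM, and Rbl2 (p130) at 2.58 and 11.3 CPM. In all 7 the mesenchymal-like library was the highest of the 12. Cdkn1a reached at most 117 CPM elsewhere, in the DMSO feeder culture.

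**Figure D4:**
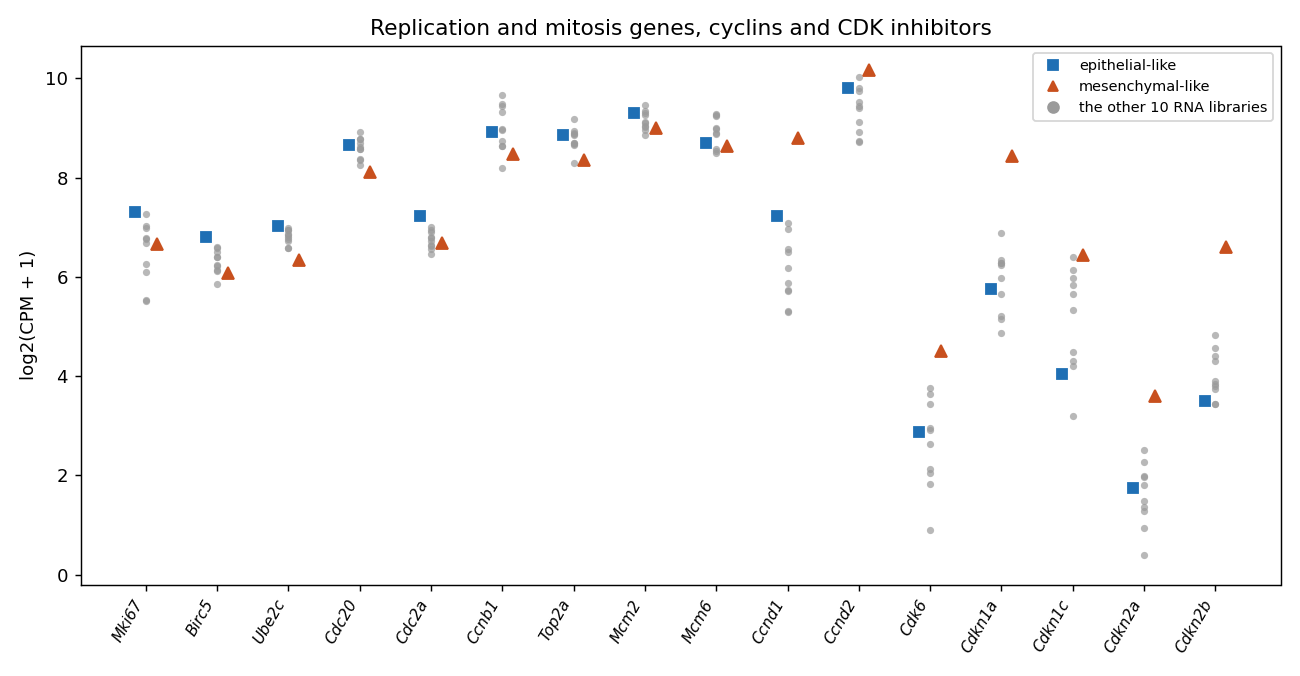
Levels as log2(CPM + 1) of 9 replication and mitosis genes (left) and of cyclins, a kinase and CDK inhibitors (right) in the epithelial-like library (blue square), the mesenchymal-like library (orange triangle) and the other 10 RNA libraries (grey points). The triangle lies under the square for the 9 genes on the left and over it for the genes on the right.

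Outside the matrix, protease, protease inhibitor, EMT factor, fibroblast and contractile lists and collagen genes, the 15 highest ratios with at least 50 counts lay between 5.60 and 6.30, or 49.98- to 251-fold for the 14 with a count in the epithelial-like library. The mesenchymal-like library was the highest of the 12 for each of them. Cav1, the coat protein of caveolae, was at 5.16 and 360.2 CPM (counting interval 5.52 to 6.80), Sdpr (Cavin2), another caveola protein, at 0.704 and 86.7 CPM, and Ehd2, an ATPase of the caveola neck, at 0.704 and 109 CPM. The highest value of Cav1 in the other libraries was 30.3 CPM. Cpe, which trims peptide hormones, was at 8.45 and 493 CPM, the secreted ribonuclease Rnase4 at 0.469 and 80.6 CPM, and the membrane protein Tm4sf1 at 0.235 and 58.9 CPM, where 1 count in the epithelial-like library leaves a counting interval of 5.48 to 13.28. Clca1 stood at 0.704 and 90.1 CPM. The others were Rpl3, Anxa1, Prl2c2, Prl2c3, Igfbp7, Pdk4, Nrp2 and Vim, of which Rpl3 and the Prl2c genes have near-identical copies and are uncertain.

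Few genes of central carbon metabolism differed by 2-fold. Of 25 glycolysis genes, 4 were at least 2-fold higher, against 10.7% of all genes, 0 lower, and the median was 0.42; the sum was 5955 and 7711 CPM, against 5031 to 7131 CPM elsewhere. Phosphofructokinase Pfkl, which catalyses the committed step, was at 3.99 and 26.3 CPM, Pgk1 at 38.3 and 131 CPM, lactate dehydrogenase Ldhb at 6.57 and 20.04 CPM and the lactate exporter Slc16a3 at 4.22 and 9.9 CPM. In 3 of these 4 (Pfkl, Ldhb and Slc16a3) the epithelial-like library was the lowest of the 12, and the mesenchymal-like values of Ldhb and Slc16a3 lay inside the range of the others. Ldha, the other lactate dehydrogenase, was at 144 and 279.8 CPM, likewise lowest in the epithelial-like library, the glucose carrier Slc2a1 at 102 and 127 CPM and hexokinase Hk2 at 51.9 and 49.3 CPM. Pgk1 differed in the other way: its mesenchymal-like value lay above the 36.4 to 60.3 CPM of the other libraries.

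Pdk4, a kinase that shuts off pyruvate dehydrogenase and so the entry of glucose carbon to the mitochondrion, was at 1.41 and 124 CPM (88.1-fold, counting interval 5.33 to 7.91) with 0.212 to 13.2 CPM elsewhere. The related Pdk1 was at 105 and 75.8 CPM, in the opposite direction. Genes of mitochondrial oxidation differed little. Of 22 TCA cycle genes 0 differed by 2-fold, with ratios between -0.29 and 0.29, and of 69 respiratory chain subunits 0 did, with ratios between -0.53 and 0.51. Their medians, -0.05 and -0.06, were that of all genes within 0.01, and their sign changes with the scaling.

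Biosynthetic pathways that feed dividing cells had medians slightly below that of all genes. Of 22 serine, glycine and folate genes 0 differed by 2-fold and 20 had a ratio below 0 (median -0.18); Phgdh, which opens serine synthesis, had 4218 and 3625 counts. Of 27 nucleotide synthesis genes 20 were below 0 (median -0.17) and Rrm2, a ribonucleotide reductase subunit, was at 179 and 152 CPM. Both medians turned positive only with germ cell centring. The single member past 2-fold was Adssl1, the muscle form of adenylosuccinate synthase, with 0 and 50 counts, at least 17.1-fold higher against a floor of 3 counts.

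Among the amino acid genes 5 of 33 were higher by 2-fold, against 10.7% of all genes. Bcat2 and Bcat1, the transaminases of branched-chain amino acids, were at 2.35 and 12.8 CPM and 1.88 and 8.69 CPM, the cystine carrier Slc7a11 at 1.17 and 4.1 CPM, Pycr1, which makes proline, at 2.35 and 7.97 CPM and Odc1, which starts polyamine synthesis, at 42.01 and 108 CPM. In the pentose phosphate and NADPH list 2 of 11 were higher (the NADPH producers Idh2 and Mod1 at 6.57 and 17.1 CPM and 36.4 and 77.99 CPM) and Rpia, a ribose isomerase, was lower with 23 and 8 counts. The counting interval of Rpia was -2.85 to -0.27.

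Lipid genes were mixed. Of 32 fatty acid oxidation genes, 8 were higher by 2-fold and 0 lower (median 0.16), and in 7 of the 8, Acsl5 excepted, the epithelial-like library was the lowest of the 12. The peroxisomal oxidase Acox3 was at 1.88 and 8.93 CPM, Acsl5, which activates fatty acids, at 4.93 and 20.3 CPM and Etfb, an electron carrier, at 25.8 and 68.1 CPM. Lipid handling held 5 of 31 higher: the droplet coat protein Adfp (Plin2) was at 44.6 and 208 CPM with 35.1 to 109.8 CPM elsewhere, the desaturase-like Fads3 at 2.11 and 29.7 CPM, and Lpl and Fabp4, which take up and carry fatty acids, had 0 counts against 12 and 9. Sterol synthesis had 2 of 24 higher (Ebp at 2.35 and 13.3 CPM and Sc5d at 39.2 and 83.8 CPM), against 10.7% of all genes. Its median was -0.01, whose sign depends on the scaling, as does that of the lipid handling list.

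Of 34 glutathione and oxidative stress genes 12 were higher by 2-fold and 0 lower (median 0.54). Secreted glutathione peroxidase Gpx3 was at 18.5 and 152 CPM, the quinone reductase Nqo1 at 9.39 and 49.7 CPM, sulfiredoxin Srxn1 at 12.2 and 41.8 CPM, Gclm, a subunit of the enzyme that makes glutathione, at 44.4 and 97.8 CPM and extracellular superoxide dismutase Sod3 at 1.17 and 21.5 CPM. For Gpx3, Nqo1 and Srxn1 the mesenchymal-like value stood above all others, and for Sod3 and Gclm it did not.

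The lysosome list held 18 of 39 genes higher by 2-fold and 38 with a ratio above 0; its median was 0.92 (0.91 with genes at 0 counts set to their bound). For 24 of the 39 the epithelial-like library was the lowest of the 12, and for 17 the mesenchymal-like library was the highest. Sums were 4409 and 8549.96 CPM against 5601 to 8026 CPM elsewhere, so the 2 libraries bracketed all others from both sides. The cathepsins Ctsb, Ctsl and Ctsd were at 243 and 794 CPM, 233 and 617 CPM and 613 and 1262 CPM, the peptidase Tpp1 at 7.51 and 121 CPM (16.1-fold, counting interval 3.49 to 4.57) and the membrane protein Cd63 at 142 and 511 CPM. Ctsk, the collagen-degrading cathepsin of osteoclasts and fibroblasts, had 2 and 210 counts.

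In the list of protein folding and secretion, 11 of 32 genes were higher by 2-fold, with a median of 0.52. Among the 11, P4ha3 (0.469 and 4.59 CPM) passed the filter only through its mesenchymal-like value. Several of the 11 process collagen: the collagen chaperone Serpinh1 was at 29.3 and 304 CPM, its partner Fkbp10 at 35.4 and 187 CPM and the prolyl hydroxylase P4ha2 at 18.5 and 45.9 CPM. Rcn1, a calcium-binding protein of the endoplasmic reticulum, was at 25.6 and 153 CPM and the stress factor Ddit3 (CHOP) at 8.68 and 19.8 CPM. The collagen genes of the fibroblast list moved with these, and their part was not tested.

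Signalling was read from the factors in the medium outward. The 17 genes of the GDNF list compared had a median of -0.22, positive only with germ cell centring. The receptors Gfra1 and Ret were at 139 and 119 CPM and 435 and 369 CPM, and the GDNF-responsive factors Etv5, Bcl6b and Lhx1 at 368 and 318 CPM, 190.3 and 145 CPM and 104 and 75.8 CPM. All 5 were within 2-fold and lower in the mesenchymal-like library, with counting intervals below 0. Ncam1, an adhesion molecule that also binds GDNF with GFRA1, went the other way at 11.7 and 202 CPM (17.2-fold, counting interval 3.69 to 4.54), against 9.25 to 27.1 CPM elsewhere.

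Of 25 genes around FGF receptors 7 were higher by 2-fold (median 0.31). Fgfr1, a receptor for bFGF, was at 102 and 406 CPM with at most 202 CPM elsewhere, while Fgfr2 and Fgfr3 were at 3.05 and 3.62 CPM and 5.63 and 7.002 CPM, with counting intervals that include 0. The heparan sulphate carriers Sdc2 and Gpc1, which present FGF to its receptors, were at 7.04 and 64.2 CPM and 4.69 and 35.5 CPM. Feedback genes of the ERK cascade divided: the phosphatases Dusp4 and Dusp5 were at 22.1 and 97.1 CPM and 101 and 287 CPM, whereas Dusp6 and Spry4 were at 265 and 263 CPM and 101 and 90.3 CPM, both with intervals that include 0.

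In the EGF family, 3 of 10 genes compared were higher and 1 lower by 2-fold. Epiregulin (Ereg), a ligand of the EGF receptor, had 2 and 141 counts (counting interval 4.30 to 9.24), and Hbegf, another ligand, was at 22.1 and 47.6 CPM. The receptor Egfr was at 0.939 and 7.24 CPM. Egf itself was lower with 14 and 3 counts, and Erbb3, a receptor partner, at 32.9 and 19.6 CPM. Among 25 immediate early genes, which answer growth factors within minutes, 3 were higher by 2-fold, against 10.7% of all genes. They were Klf6 at 13.6 and 109 CPM, Myc at 6.1 and 42.7 CPM and Fosl1 at 8.21 and 38.6 CPM. Fos, Jun and Egr1 were within 2-fold, at 40.6 and 32.8 CPM, 30.98 and 42.3 CPM and 242 and 238 CPM. Over the list, 19 of 25 ratios were above 0, and the counting interval lay above 0 for 10 and below 0 for 1 (median 0.44).

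Ligands, storage proteins and some receptors of TGF-beta signalling were higher in the mesenchymal-like library. Of 36 genes, 30 were compared, 17 were higher by 2-fold and 0 lower. Their median was 1.36, and it moved from 0.38 with a filter at 10 CPM to 1.92 with a pseudocount of 0.1. Among ligands, the activin subunit Inhba was at 1.64 and 76.1 CPM (7 and 315 counts, counting interval 4.47 to 6.86), Tgfb2 at 0.939 and 31.1 CPM and Tgfb3 at 1.17 and 31.9 CPM; Tgfb1 had 3 and 12 counts. The latent binding proteins Ltbp2 and Ltbp1, which store TGF-beta in the matrix, were at 2.11 and 147 CPM and 4.46 and 78.2 CPM. Of the receptors, Tgfbr2 was at 13.4 and 59.4 CPM and Tgfbr3 at 9.39 and 39.4 CPM, while Tgfbr1 stayed within 2-fold at 55.9 and 46.6 CPM.

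Downstream of these receptors, the shared mediator Smad4 was at 22.3 and 53.1 CPM and Smad3 at 34.7 and 57.9 CPM. Smad7, a feedback inhibitor and target gene, was at 26.3 and 29.9 CPM, with a counting interval that includes 0. The follistatin-like inhibitor Fstl3 was at 3.29 and 42.01 CPM. Tgfb2 reached 1.60 CPM at most in the other 10 libraries. In the DMSO feeder culture, with its fibroblast sum of 3848 CPM, Tgfb2 was at 1.6 CPM, Tgfbr2 at 51.3 CPM, Tgfbr3 at 45.3 CPM and Ltbp2 at 31.9 CPM, and the part of fibroblast transcripts in the list was not tested.

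BMP antagonists differed in both directions. Grem1, which binds and blocks BMPs, was at 2.35 and 83.5 CPM, while another antagonist, Chrd, was lower at 8.21 and 3.38 CPM. The ligand Bmp4 was at 16.2 and 12.8 CPM and the target genes Id1 and Id3 at 15.3 and 20.5 CPM and 89.4 and 122 CPM, each within 2-fold; Id2 had 0 and 17 counts. In the list of 24 compared, 6 were higher and 2 lower (the other being Smad9, with 7 and 1 counts). Of the 6, Bmp8a (0.469 and 3.14 CPM) passed the filter only through its mesenchymal-like value. Bmp1, higher at 6.34 and 125 CPM, is by activity a collagen-processing protease.

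The YAP and TEAD list had a median of 1.48 over its 21 genes, with 12 higher by 2-fold and 0 lower. YAP and its relative TAZ are co-activators that enter the nucleus of spread or stretched cells and bind TEAD factors there. The co-activator genes Yap1 and Wwtr1 (TAZ) were at 20.9 and 27.3 CPM and 45.1 and 50.9 CPM, with counting intervals that include 0, and the factors Tead1 and Tead3 at 2.58 and 12.1 CPM and 1.17 and 5.07 CPM. Among known targets, Cyr61 was at 4.93 and 269.9 CPM (54.8-fold, counting interval 5.16 to 6.47), Ctgf at 11.7 and 532 CPM (45.3-fold, 5.10 to 5.94), Ankrd1 at 1.88 and 97.1 CPM (51.7-fold, 4.70 to 6.91) and Amotl2 at 34.5 and 161 CPM (4.66-fold, 1.96 to 2.49). The mesenchymal-like library was the highest of the 12 for all 4, and Ankrd1 reached at most 3.29 CPM elsewhere. The list's sum was 532 and 2067 CPM, with 767 CPM in the DMSO feeder culture. Fibroblasts also express these genes, and the part of fibroblast transcripts was not tested.

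The TEAD motif GGAATG, searched on both strands in the 250 bases before the start, was present in 11 of the 17 members of the YAP and TEAD list that have a promoter in the RefSeq table (64.7%). It was present in 15.9% of 1104 genes higher by 2-fold, in 11.2% of 125 lower genes and in 12.7% of all 10173 compared genes with a promoter. Ctgf has no entry there. The promoters of 3 target genes are shown because these genes are described above and hold the motif, which is in capitals (CATTCC is its reverse complement), on the gene's strand in build GRCm38.p6.
Cyr61, chr3:145649986-145650235 (minus strand): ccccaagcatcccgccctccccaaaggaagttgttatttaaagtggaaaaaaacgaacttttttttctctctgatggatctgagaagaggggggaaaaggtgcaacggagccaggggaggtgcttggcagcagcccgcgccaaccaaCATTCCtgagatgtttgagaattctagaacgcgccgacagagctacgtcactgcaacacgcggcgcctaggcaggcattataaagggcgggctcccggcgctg
Ankrd1, chr19:36119845-36120094 (minus strand): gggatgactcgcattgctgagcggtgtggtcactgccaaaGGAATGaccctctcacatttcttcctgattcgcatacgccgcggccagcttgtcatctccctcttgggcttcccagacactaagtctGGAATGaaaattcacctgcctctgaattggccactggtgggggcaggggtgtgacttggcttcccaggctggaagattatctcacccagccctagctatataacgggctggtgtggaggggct
Amotl2, chr9:102717554-102717803 (plus strand): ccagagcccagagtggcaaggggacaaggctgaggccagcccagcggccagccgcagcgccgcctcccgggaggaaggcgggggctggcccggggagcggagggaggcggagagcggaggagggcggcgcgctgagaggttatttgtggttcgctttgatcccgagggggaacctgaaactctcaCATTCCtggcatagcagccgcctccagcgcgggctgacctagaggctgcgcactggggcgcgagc
The match began at -103 in Cyr61, at -210 and -123 in Ankrd1 and at -65 in Amotl2. The list holds known targets of these factors, so its motif share does not bear on the difference between the libraries. Here too a match describes letters and is not evidence of a bound site.

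Other motifs were searched in the same windows, where matches of different motifs may overlap. The AP-1 motif TGANTCA, bound by FOS and JUN proteins, was found in 8.42% of higher genes, 4.8% of lower genes (6 of 125) and 5.48% of all compared genes with a promoter. The E-box CACCTG, the form bound by SNAI and ZEB factors, was found in 18.8%, 23.2% and 19%. Over all 32851 promoter regions of the RefSeq table the shares were 6.75% for AP-1, 17.2% for the E-box, 12.6% for TEAD and 16% for TTTGAA.

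WNT, Notch and Hedgehog lists had medians of 0.05, 0.07 and -0.04, close to the -0.06 of all genes and of unstable sign under other scalings or filters. Within WNT, 8 of 43 genes compared were higher and 0 lower. The ligand Wnt5a was at 7.51 and 40.1 CPM, the amplifier Rspo3 had 2 and 37 counts, the receptor Fzd1 had 2 and 98 counts and the antagonist Dkk2 2 and 91 counts; Axin2, the usual target of beta-catenin, was at 10.1 and 11.3 CPM, with a counting interval that includes 0. In Notch, the receptor Notch3 was at 1.17 and 12.3 CPM, while the ligands Jag1 and Jag2 were lower at 33.3 and 16.9 CPM and 31.9 and 17.6 CPM, short of 2-fold. Of 11 Hedgehog genes 0 differed by 2-fold; the receptor Ptch1 was at 14.1 and 12.1 CPM.

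In the IGF list, 6 of 19 genes were higher by 2-fold and 0 lower. Igfbp7, an IGF binding protein, was at 3.05 and 266 CPM (87.3-fold), the protease Pappa, which frees IGF from its carriers, had 1 and 116 counts, and the adaptor Grb10 was at 4.93 and 71.2 CPM. The ligand Igf2 and the receptor Igf1r were within 2-fold, at 299 and 319.7 CPM and 127 and 148 CPM. For PDGF and VEGF, 6 of 14 were higher. The neuropilins Nrp2 and Nrp1, co-receptors for VEGF and semaphorins, had 0 and 205 counts (at least 70.3-fold higher) and 1 and 116 counts, Vegfc had 0 and 72 counts (at least 24.7-fold higher), and the receptor Pdgfrb, also in the fibroblast list, was at 3.52 and 56.98 CPM.

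Guidance molecules followed no single direction: of 38 ephrin and semaphorin genes 21 had a ratio above 0 and 17 below. By 2-fold 8 were higher and 1 lower, against 10.7% and 1.78% of all genes. Sema3e was at 3.99 and 114 CPM with 0.251 to 7.59 CPM elsewhere, and its family's receptor Plxna2 had 0 and 43 counts, while the ligand Efna1 was lower at 9.15 and 3.62 CPM, where the mesenchymal-like library was the lowest of the 12. Of 31 cytokine receptor and JAK-STAT genes 5 were higher, against 10.7% of all genes. Among them were Osmr, the oncostatin M receptor, at 1.41 and 23.2 CPM, Ghr at 1.17 and 15.5 CPM and Il4ra at 26.3 and 98.5 CPM. The LIF receptor gene Lifr was at 26.5 and 29.5 CPM. Retinoid genes held 2 of 16 higher, again against 10.7% of all genes. Aldh1a1, which makes retinoic acid, had 0 and 59 counts (at least 20.2-fold higher) and the binding protein Crabp2 was at 2.35 and 18.1 CPM.

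Many genes of secreted factors differed, and nearly all of these were higher in the mesenchymal-like library. Of 43 cytokines and chemokines, 24 were compared, 11 were higher by 2-fold and 0 lower (median 0.87, between 0.34 with a pseudocount of 5 and 1.89 with a filter at 10 CPM). Csf1, the growth factor of macrophages that also acts on spermatogonia, was at 10.3 and 429 CPM (44 and 1778 counts; 41.6-fold, counting interval 4.95 to 5.84). The other 10 libraries held Csf1 at 1.03 to 38.3 CPM, so the epithelial-like value was ordinary and the mesenchymal-like value stood apart. Osteopontin (Spp1) was at 59.6 and 1773 CPM with 11.3 to 1188 CPM elsewhere, and the monocyte chemokines Ccl2 and Ccl7 at 3.05 and 155 CPM and 1.88 and 116 CPM with up to 68.1 and 52.3 CPM. For these 3 genes other libraries reached well above the epithelial-like level.

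The cytokine Lif, which supports germ cells and pluripotent cells in culture, was at 1.17 and 10.1 CPM, and Il33, an alarmin, had 3 and 41 counts. Cxcl12, the ligand of CXCR4 on stem cells, was at 1.88 and 9.66 CPM, and its epithelial-like value was the lowest of the 12 while others reached 87.04 CPM. Cxcl1 and Cxcl5, neutrophil chemokines, had 1 and 9 counts and 0 and 11 counts, below some of the other libraries, where they reached 10.8 and 99.4 CPM. In this list 20 of 43 genes had 0 counts in the epithelial-like library and 10 in the mesenchymal-like library.

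Of 33 growth factor genes compared (50 listed), 15 were higher by 2-fold, 0 lower, and the median was 1.00, which dropped to 0.27 with a filter at 10 CPM. Nerve growth factor (Ngfb) was at 1.17 and 50.7 CPM (43.2-fold, counting interval 4.19 to 7.07), and the other 10 libraries held it at 0 to 0.698 CPM. Ngfb thus passed the filter only through its mesenchymal-like value. The related Bdnf had 0 and 48 counts (at least 16.5-fold higher), and Fgf7, a ligand for epithelial FGF receptors, had 2 and 161 counts. Angptl2 was at 1.64 and 79.7 CPM and Wisp1, a matricellular growth factor, at 1.64 and 77.3 CPM. Kitl, the ligand of KIT that drives spermatogonial differentiation, was at 1.41 and 13.8 CPM with at most 2.45 CPM elsewhere. Gdnf, the factor supplied in the medium, lay under the filter with 0 and 11 counts (at least 3.77-fold higher). Neurturin (Nrtn), of the same family, was at 5.63 and 12.3 CPM, and Fgf9, at 6.81 and 3.38 CPM, was the member with the lowest ratio, -0.83.

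Proliferins, prolactin relatives first found in growing fibroblasts and placenta, had 3 of 3 compared genes higher, Prl2c3 at 11.3 and 602 CPM (48 and 2493 counts) and Prl8a9 with 0 and 29 counts. Prl2c genes are near-identical, so how reads were divided between them is uncertain; their list summed to 15.02 and 941 CPM. At most 36.04 CPM was seen elsewhere, on feeders at day 0.

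Acute phase and complement genes were higher by 2-fold in 13 of 19 compared (median 1.67, or 1.63 with genes at 0 counts set to their bound), from a low start. The median was 0.52 with a pseudocount of 5 and 3.04 with a pseudocount of 0.1. Their sum, 38.02 and 182 CPM, compares with 93.2 to 1267 CPM in the other libraries, so the epithelial-like library was below all of them and the mesenchymal-like library within their range. Lipocalin-2 (Lcn2) had 0 and 63 counts, or 0 and 15.2 CPM, against 3.18 to 158 CPM elsewhere, and complement C3 was at 2.11 and 13.3 CPM with 3.64 to 40.5 CPM. The mesenchymal-like library was the highest of the 12 for 2 of the 19; 1 of them is thrombomodulin (Thbd), an anticoagulant receptor, with 3 and 156 counts. Serpina3n, an acute phase protease inhibitor, had 1 and 114 counts, with up to 198 CPM elsewhere.

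Proteases that cut matrix and their inhibitors were higher together. Of 35 matrix proteases compared, 18 were higher by 2-fold and 0 lower (median 1.27, or 1.26 with genes at 0 counts set to their bound). Gelatinase A (Mmp2) was at 16.9 and 259 CPM, its activator Mmp14 at 31.2 and 216 CPM, the serine protease Htra1 at 4.22 and 213 CPM (50.4-fold, counting interval 4.99 to 6.42), and the procollagen protease Adamts2 at 1.41 and 72.9 CPM. Stromelysin (Mmp3) had 1 and 76 counts, a value exceeded in other libraries, where it reached 72.7 CPM. The urokinase receptor Plaur was at 10.8 and 29.5 CPM and urokinase (Plau) at 3.29 and 6.76 CPM, the second short of 2-fold on the log2 scale with the pseudocount (0.86).

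Of 23 protease inhibitors compared, 15 were higher by 2-fold, 0 lower, and the median of 3.23 exceeded that of the proteases. Timp1, Timp2 and Timp3, which block the metalloproteinases, were at 17.6 and 528 CPM, 11.7 and 318 CPM and 7.51 and 155 CPM, and all 3 were highest in the mesenchymal-like library. Serpinb9b, a granzyme inhibitor relative, was at 1.41 and 128 CPM (90.9-fold, counting interval 5.37 to 7.96) with at most 2.59 CPM elsewhere; it belongs to a cluster of similar genes. Serpinb2 (PAI-2), an inhibitor of urokinase, was at 2.58 and 119.5 CPM, and Slpi, which inhibits elastase, had 3 and 87 counts. In 16 of the 23 the mesenchymal-like library was the highest of the 12, and in 0 was the epithelial-like library the lowest.

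**Figure D5:**
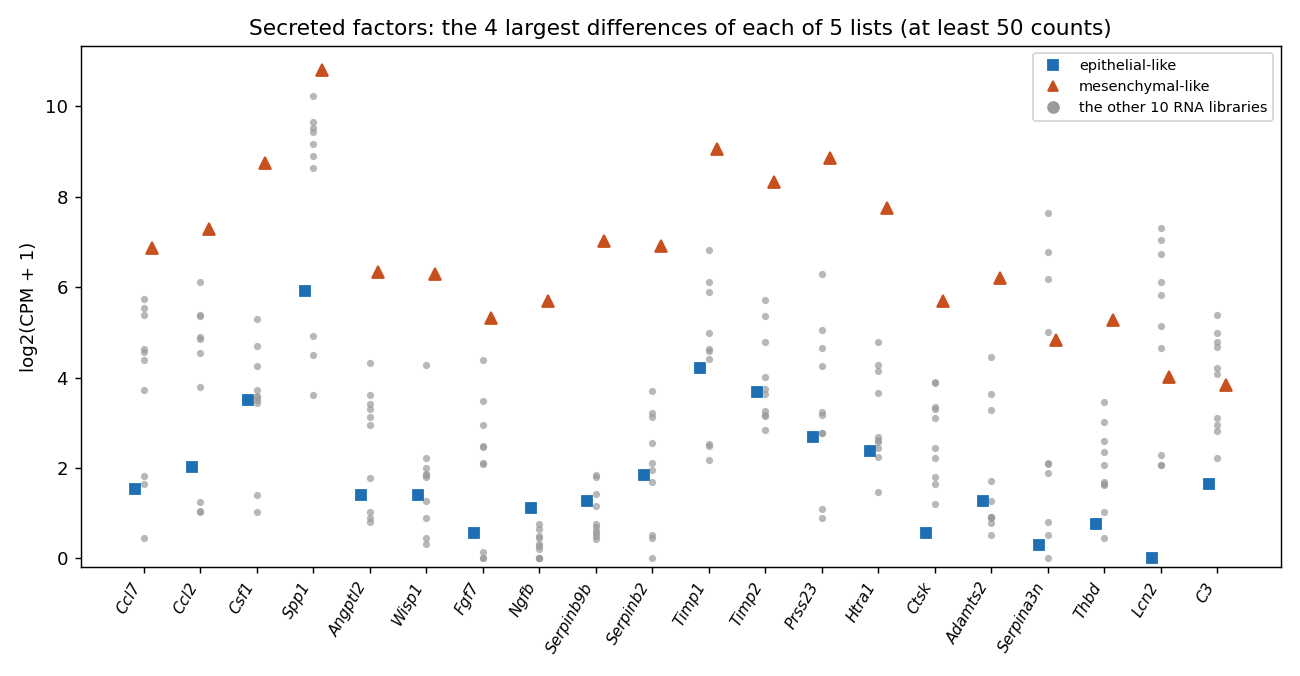
Levels as log2(CPM + 1) of 20 secreted or surface factors, the 4 largest ratios of each of 5 lists among genes with at least 50 counts, each gene shown once (cytokines, growth factors, protease inhibitors, proteases, acute phase), in the epithelial-like library (blue square), the mesenchymal-like library (orange triangle) and the other 10 RNA libraries (grey points). The triangle lies above all grey points except for Serpina3n, Lcn2 and C3, which were higher in some other libraries.

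Matrix glycoproteins completed the secreted set, with 25 of 47 compared higher by 2-fold and 0 lower (median 1.07). Thrombospondin-1 (Thbs1), which activates latent TGF-beta, was at 41.8 and 2177 CPM with 8.9 to 474 CPM elsewhere, the collagen-binding protein Sparc (osteonectin) at 48.1 and 1832 CPM and biglycan (Bgn) at 14.8 and 905 CPM. Nidogen-1 (Nid1), a basement membrane linker that is itself a component of Matrigel as protein, was at 281 and 1011 CPM. The sum of the list was 2609 and 11997 CPM, with 5193 CPM in the DMSO feeder culture. In the 3 GFP fractions from the same Matrigel density it was 2579.6, 2224 and 2676 CPM, and the YAP and TEAD list summed there to 445, 456 and 565 CPM. The sorted fractions thus lay near the epithelial-like library in both lists; sorting, experiment and culture cannot be told apart in that comparison.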

How the data were processed

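RNA-seq (modified Smart-seq2) of 12 libraries was used, and per the submitters' processing notes it was processed with Trim Galore and RSEM on mm10; the aligner, the annotation release and the versions are not given in the sources used here. The authors deposited, for each library, a table of RSEM expected counts and of TPM for 27128 genes. Expected counts were rounded to whole numbers, which the text calls counts, and turned into CPM. Of all 27128 values, genes without reads included, 8.74% and 8.55% were not whole in the epithelial-like and mesenchymal-like library. The TMM factors over the 12 libraries came from edgeR 4.0.16 (R 4.3.3), with 0.955 and 0.912 for the pair. A floor of 3 counts equals 0.704 and 0.724 CPM in these libraries. Of the genes, 19516 (71.9%) matched RefSeq by transcript or, failing that, by symbol, which gave the current names in brackets.

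Genes averaging 1 CPM or more were compared as log2 ratios of CPM + 1. Intervals were computed with scipy 1.17.1 and cover counting error only. No test was made, since each group had 1 library. The ratio code was tested on simulated data. Members and lists were chosen with earlier results of these data known. Named genes were the given markers, members of the lists, the 20 lowest ratios, and the 15 highest outside the fibroblast, contractile, EMT factor, matrix glycoprotein, protease, protease inhibitor and collagen genes, the last 2 groups with at least 50 counts in the higher library and no predicted locus. Promoters came from RefSeq (GRCm38.p6) and were matched by RefSeq gene identifier. A gene with several promoters was counted as holding a motif if any of them did. As alternatives, scaling used total counts, size factors of DESeq2 1.42.0 or the TPM column, the filter was dropped or set at 10 CPM, the pseudocount was 0.1 or 5, and ratios were centred on germ cell genes; other reference libraries for TMM and the motif TTTGAA were added after the data were seen. The 4 ATAC-seq libraries were not analysed here. Some members of the lists are not reported here by name.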

Additional observations from a re-analysis of the deposited data

How the results depend on the processing

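Genes at least 2-fold higher numbered 992 with a pseudocount of 5 and 643 with a filter at 10 CPM, and between 1321 and 2149 under the other 8 alternatives, against 1527. Genes at least 2-fold lower numbered 635 with a pseudocount of 0.1, 12 with a pseudocount of 5, 37 with a filter at 10 CPM and 94 with germ cell centring, and between 234 and 356 under the other 6, against 254. A larger pseudocount and a stricter filter both act on low genes by construction, and the lower genes had a median of 4.46 CPM in the epithelial-like library. The 15 highest ratios stayed past 2-fold under each of the 10 alternatives. The 20 lowest kept 12 members past it with the epithelial-like library as TMM reference, 16 with DESeq2 size factors and 18 with the deposited TPM. They kept 2 with a pseudocount of 5, 0 with germ cell centring and 20 under the other 5. Alternatives that change only the filter leave every ratio as it is, so both sets stayed past 2-fold there by construction. Of 51 lists, 17 had a median that took the other sign under at least 1 alternative, and 6 did so relative to all genes (endothelial, epithelial, TCA cycle, respiratory chain, WNT and Hedgehog). Other list medians also moved by over 1.5 times between their lowest and highest values, among them these: fatty acid oxidation lay between 0.09 and 0.44, protein folding and secretion between 0.45 and 0.80, glutathione and oxidative stress between 0.47 and 0.82, glycolysis between 0.28 and 0.70, FGF receptors and ERK feedback between 0.25 and 0.59, immediate early genes between 0.25 and 0.72, matrix proteases between 0.72 and 1.96, matrix glycoproteins between 0.82 and 1.85, protease inhibitors between 2.13 and 3.52, and CDK inhibitors and D cyclins between 0.38 and 0.87. With a pseudocount of 0.1 the median of the TGF-beta list (1.92) exceeded that of the YAP and TEAD list (1.82). No paired analysis was possible because each RNA group had 1 library, and for the same reason no replicate could be left out.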

Other observations

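Some values outside the lists were looked at after the ratios were seen. Xist, the RNA that coats the inactive X chromosome, had 0 and 49 counts, or 11.8 CPM in the mesenchymal-like library, at least 16.8-fold higher against a floor of 3 counts, with 0.125 to 6.64 CPM in the other 10 libraries. The Y-linked genes Ddx3y and Uty were at 21.6 and 24.1 CPM and at 14.1 and 11.3 CPM, with counting intervals that include 0. Eif2s3y and Jarid1d (Kdm5d) were at 65.2 and 47.1 CPM and at 17.4 and 10.4 CPM, both with intervals below 0. For Eif2s3y, Uty and Jarid1d the mesenchymal-like library was the lowest of the 12.

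The replication-dependent histone genes, which were found through Hist2h3b, set the pair apart from the rest. The 63 genes named Hist summed to 567 CPM in the epithelial-like and 729 CPM in the mesenchymal-like library, against 113 to 364 CPM in the other 10. Of the 36 compared, 5 were at least 2-fold higher and 4 at least 2-fold lower in the mesenchymal-like library, with a median ratio of -0.05. These genes have near-identical copies and mostly lack poly(A) tails, and the labels give no batch that separates the pair from the other libraries.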
